A study of Mus musculus with 6 samples.

Results

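The 10 genes studied here lie in 1 cluster on mouse chromosome 14, encode granule serine proteases and were followed in murine lung cancer cells, namely the mast cell protease genes Cma1, Mcpt1, Mcpt2, Mcpt4 and Mcpt8 and the granzyme genes Gzmb, Gzmc, Gzmd, Gzme and Gzmf. They were matched by gene name, and all 10 were found among the 34745 genes of the count files. The list was selected on earlier results of the same comparison, in which Mcpt1 had the lowest fold change, so the differences of these 10 genes between the groups are given as a description. Calls among them are counted from the fit over all genes, and no p is given for them. RNA-seq had been performed on 889 cells (889-DTC), a lung cancer line of C57BL/6 background, in 3 libraries labelled sg-con and 3 labelled sg-kiaa1522. Cells of the sg-con group expressed Cas9 with a control sgRNA, which in the study's methods was a plasmid aimed at EGFP, and cells of the sg-kiaa1522 group, labelled as KIAA1522-downregulated, expressed Cas9 with an sgRNA against kiaa1522. Which of the designed sgRNAs was used, and whether the cells were a pool or 1 clone, was not given in the sources used here. Nothing in the labels says that the libraries of a group came from separate cultures, so p-values measure only the spread between these libraries. The libraries held 12220001 to 18609376 counts. The targeted gene itself (C77080) stood at 126 CPM in the sg-con and at 209 CPM in the sg-kiaa1522 libraries (log2 fold change 0.73, adjusted p = 9.1e-05, edgeR). The mRNA of the targeted gene was thus not reduced, which does not show how much of its protein was present. The paper describes these cells as depleted of KIAA1522. The groups are called by their labels throughout. CPM is a count scaled to the library total times its TMM normalization factor.

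These proteases are made as inactive precursors, are trimmed by cathepsin C and are stored in secretory granules bound to serglycin. Mast cells release chymases such as those of Cma1, Mcpt1 and Mcpt4, basophils release the protease of Mcpt8, and cytotoxic T cells and natural killer cells deliver granzymes into target cells through perforin. None of these cell types is an epithelial tumor cell, and the genes of the cluster arose by duplication, so that some of them are close copies of each other.

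In GRCm38 the cluster runs from Cma1 (ENSMUSG00000022225, chr14:55941451-55944675) to Gzmb (ENSMUSG00000015437, chr14:56258838-56262260) over 321 kb. Mcpt1 (ENSMUSG00000022227, chr14:56017971-56020384) and Mcpt2 (ENSMUSG00000022226, chr14:56042041-56044642) lie on the plus strand and the other 8 on the minus strand. They are followed by Mcpt4 (ENSMUSG00000061068, chr14:56059629-56062313), Mcpt8 (ENSMUSG00000022157, chr14:56082166-56085273), Gzme (ENSMUSG00000022156, chr14:56117626-56120625) and Gzmd (ENSMUSG00000059256, chr14:56129556-56132608), and then by Gzmf (ENSMUSG00000015441, chr14:56205263-56211417) and Gzmc (ENSMUSG00000079186, chr14:56231441-56234656). The annotation places Mir6949 inside Mcpt8 on the same strand and the antisense gene Gm4022 across part of Gzmf, and neither of these is in the files.

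The start sites were compared first, since they show which of the genes are copies with like control regions. RefSeq promoters of GRCm38.p6, which hold 250 bases before and 50 after the start, were found for 9 of the 10 genes. Mcpt2 had no entry. The promoters of 5 genes are shown, Mcpt1 and Mcpt4 because their RNA was lowered most, Gzme and Gzmd because they stayed on, and Gzmc because it is a close copy without counts. Capitals mark letters of the motifs searched on both strands, TGTGGT of RUNX factors and GATAAG of GATA factors, or the reverse complement of either where it lies on the other strand. The matches do not overlap each other.
Mcpt1 (chr14:56017714-56018013, plus strand): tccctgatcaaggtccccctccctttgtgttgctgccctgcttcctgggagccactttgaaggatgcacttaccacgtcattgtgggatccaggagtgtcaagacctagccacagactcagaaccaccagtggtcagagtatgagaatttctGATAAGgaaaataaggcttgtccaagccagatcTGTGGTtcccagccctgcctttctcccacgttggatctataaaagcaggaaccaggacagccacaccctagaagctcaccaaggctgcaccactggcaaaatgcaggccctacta
Mcpt4 (chr14:56062261-56062560, minus strand): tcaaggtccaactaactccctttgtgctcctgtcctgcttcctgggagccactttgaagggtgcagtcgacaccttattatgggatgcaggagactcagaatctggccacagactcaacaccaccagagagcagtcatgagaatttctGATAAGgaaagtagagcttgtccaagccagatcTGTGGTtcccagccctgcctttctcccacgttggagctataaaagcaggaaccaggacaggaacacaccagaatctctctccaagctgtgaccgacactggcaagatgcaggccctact
Gzme (chr14:56120576-56120875, minus strand): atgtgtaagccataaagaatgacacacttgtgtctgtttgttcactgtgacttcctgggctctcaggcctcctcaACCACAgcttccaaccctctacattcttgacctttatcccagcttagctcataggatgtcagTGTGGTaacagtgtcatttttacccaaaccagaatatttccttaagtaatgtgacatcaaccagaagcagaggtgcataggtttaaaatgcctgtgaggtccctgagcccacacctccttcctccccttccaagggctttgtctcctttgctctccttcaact
Gzmd (chr14:56132544-56132843, minus strand): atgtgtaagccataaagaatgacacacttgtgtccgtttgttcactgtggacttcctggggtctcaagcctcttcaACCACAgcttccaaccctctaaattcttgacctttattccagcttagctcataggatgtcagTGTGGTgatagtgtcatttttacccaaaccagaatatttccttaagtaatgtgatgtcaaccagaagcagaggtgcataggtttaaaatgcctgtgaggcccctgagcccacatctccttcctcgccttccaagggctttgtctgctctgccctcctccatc
Gzmc (chr14:56234608-56234907, minus strand): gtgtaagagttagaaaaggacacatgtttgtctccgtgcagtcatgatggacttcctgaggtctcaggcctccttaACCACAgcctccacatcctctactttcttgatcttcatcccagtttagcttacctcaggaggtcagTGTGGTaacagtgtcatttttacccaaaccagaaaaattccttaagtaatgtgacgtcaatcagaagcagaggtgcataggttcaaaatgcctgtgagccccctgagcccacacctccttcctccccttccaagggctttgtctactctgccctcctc

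The promoters of Mcpt1 and Mcpt4 were identical at 80.6% of aligned positions, and those of Gzme and Gzmd at 93.4%. Gzmc shared 82.7% with each of Gzme and Gzmd, whereas Mcpt1 and Gzme shared 47.2%. TGTGGT was found in all 9 promoters, against 16.8% of 32851 RefSeq promoters of the same length. GATAAG was found only in those of Mcpt1 and Mcpt4 (7.44% of all promoters), in which it starts at -98 and -102 from the start site and TGTGGT at -65 and -69. TGANTCA of AP-1 (7.81%) and TTCNNNGAA of STAT factors (8.30%) were found only in Gzmb, and the NFκB motif (1.63%) in none of the 9. Since the genes are copies, shared letters are not independent observations, and a match is a description of the sequence and not of binding.

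Copies also bear on the counts, because a fragment that fits more than 1 gene is not uniquely mapped. Coding sequences, without the stop codon, were 93.3% identical between Gzme and Gzmd, 86.7% between Mcpt1 and Mcpt4, 81.2% between Mcpt1 and Mcpt2, and 61.4% between Mcpt1 and Cma1. Of all stretches of 50 bases in the annotated transcripts, 20.6% of those of Gzme and 21.9% of those of Gzmd also occur in another gene. This share was 5.48% for Mcpt4, 5.38% for Cma1 and 0% for Mcpt1, Mcpt2 and Mcpt8. The levels of Gzme and Gzmd are therefore the least certain, and small counts of Mcpt2 and Mcpt4 are read beside those of Mcpt1.

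Along the cluster, levels differed by position. The first 4 genes (Cma1, Mcpt1, Mcpt2 and Mcpt4) were at 0.294% to 14.3% of their sg-con mean in the sg-kiaa1522 libraries, and 2 of them, Mcpt2 and Mcpt4, were lost. Mcpt8, Gzme and Gzmd, which follow them, stayed on at 43.6% to 66.1%. The last genes, Gzmf, Gzmc and Gzmb, had at most 2 counts in any library of either group. A gene was called lost when it had more than 3 counts in every sg-con and at most 3 in every sg-kiaa1522 library, and on when it had more than 3 in every library. The label depends on the starting count. Mcpt2 fell 27-fold to 3.7% of its sg-con mean, and Mcpt1, which was on, fell 37.1-fold to 2.69%. Lost therefore does not mean a larger fall than in Mcpt1.

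**Figure D1:**
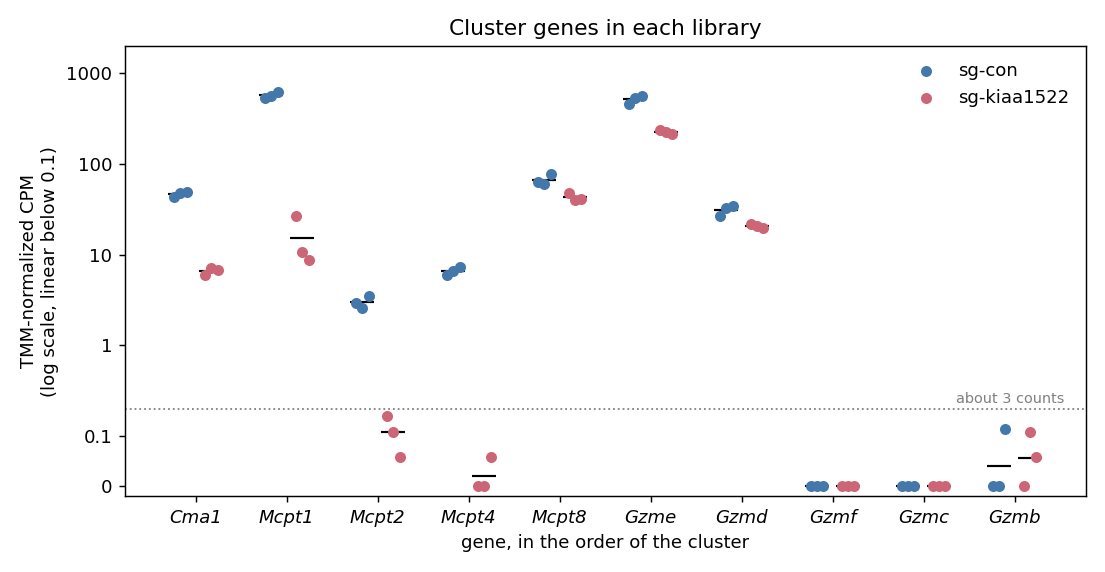
TMM-normalized CPM of the 10 genes (log axis, linear below 0.1) in the 3 sg-con libraries (blue) and the 3 sg-kiaa1522 libraries (red), with genes in the order of the cluster and bars at the group means. Mcpt4 fell from a mean of 6.65 to 0.0195 CPM, whereas Gzme stayed at 225 CPM and Gzmf and Gzmc were at 0 in all libraries.

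Mcpt1, a chymase of mucosal mast cells, had 9249, 10510 and 10339 counts in the sg-con libraries and 325, 195 and 150 in the sg-kiaa1522 libraries. This corresponds to 528, 564 and 617 CPM against 26.6, 10.6 and 8.79 CPM. The groups were far apart, and sg-kiaa1522 replicate 1, the library with the fewest counts in all, held the highest of the reduced values. The mean was 570 ± 44.8 CPM in sg-con and 15.3 ± 9.83 CPM in sg-kiaa1522 (SD, n = 3); the log2 fold change was -5.25 with a standard error of 0.397, the lowest of the 10046 tested genes. Without sg-kiaa1522 replicate 1 it was -5.88.

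Cma1, which encodes the mouse alpha-chymase, had 756, 879 and 818 counts in sg-con against 73, 132 and 115 in sg-kiaa1522. In CPM these are 43.2, 47.2 and 48.8 against 5.99, 7.17 and 6.74. Unlike Mcpt1, Cma1 was reduced to nearly the same level in all 3 sg-kiaa1522 libraries. Its mean went from 46.4 ± 2.91 to 6.63 ± 0.598 CPM (SD, n = 3), and its log2 fold change was -2.80 with a standard error of 0.107.

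Mcpt4, a chymase of connective tissue mast cells, had 105, 124 and 122 counts in the sg-con libraries and 0, 0 and 1 in the sg-kiaa1522 libraries. Over the group, 351 counts against 1 gave a ratio of 316 with a 95% counting interval of 56.4 to 12534 (exact, for counting error only). Mcpt2, another protease of mucosal mast cells, had 51, 48 and 58 counts against 2, 2 and 1, which is 157 against 5 and a ratio of 28.3 (95% counting interval 11.9 to 88.4). Both genes were at or under 3 counts in every sg-kiaa1522 library. With 352 and 162 counts over all libraries they did not pass the filter of the study's methods, more than 500 counts, and were not in the main fit.

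Because Mcpt2 and Mcpt4 are near copies of Mcpt1, their counts were also set against it. Mcpt4 had 1.14%, 1.18% and 1.18% of the counts of Mcpt1 in sg-con and 0%, 0% and 0.667% in sg-kiaa1522. Mcpt2 had 0.551%, 0.457% and 0.561% in sg-con and 0.615%, 1.03% and 0.667% in sg-kiaa1522. The 1 or 2 counts of Mcpt2 in each sg-kiaa1522 library are too few to tell these shares apart. Whether fragments of Mcpt1 were counted for Mcpt2 was not tested.

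Past Mcpt4 the pattern changed within 19.9 kb. Mcpt8, the protease by which mouse basophils are recognized, had 1114, 1116 and 1284 counts in sg-con and 577, 745 and 701 in sg-kiaa1522, or 63.6, 59.9 and 76.7 against 47.3, 40.4 and 41.1 CPM. Every sg-kiaa1522 library was below every sg-con library, but by a small step. The mean went from 66.7 ± 8.80 to 42.9 ± 3.79 CPM (SD, n = 3), and the log2 fold change was -0.64 with a standard error of 0.116.

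Gzme was the most abundant granzyme and stayed strongly on. It had 8101, 9922 and 9282 counts in sg-con and 2899, 4080 and 3683 in sg-kiaa1522, which are 463, 533 and 554 against 238, 222 and 216 CPM. The groups did not overlap, and the sg-kiaa1522 libraries lay close together. The mean was 517 ± 47.9 CPM in sg-con and 225 ± 11.3 CPM in sg-kiaa1522 (SD, n = 3), and the log2 fold change was -1.20 with a standard error of 0.0826.

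Gzmd, the neighbour and closest copy of Gzme, had 460, 603 and 577 counts in sg-con and 265, 376 and 331 in sg-kiaa1522. In CPM these were 26.3, 32.4 and 34.5 against 21.7, 20.4 and 19.4. The groups were apart, though sg-con replicate 1 came near the sg-kiaa1522 values. The mean went from 31.0 ± 4.25 to 20.5 ± 1.17 CPM (SD, n = 3), and the log2 fold change was -0.60 with a standard error of 0.121.

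The counts of Gzmd amounted to 5.68%, 6.08% and 6.22% of those of Gzme in sg-con and to 9.14%, 9.22% and 8.99% in sg-kiaa1522. The share was higher in every sg-kiaa1522 library than in any sg-con library. What part of the Gzmd counts came from Gzme was not tested.

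Gzmf and Gzmc had 0 counts in all 6 libraries, which allows up to 3 counts, or 0.161 to 0.246 CPM depending on the library. Gzmb, the granzyme that cleaves caspases in target cells, had 0, 0 and 2 counts in sg-con and 0, 2 and 1 in sg-kiaa1522, so that it was not detectable above the same limit and no fold is given. Among the 5 granzyme genes listed, counts above this limit were thus found for Gzme and Gzmd only.

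Between genes, levels were compared as TPM, which divides counts by the exon length of each gene. With the mean transcript length in its place TPM was lower by more than 1.5 times, as for Mcpt1 (755 in place of 1447 in sg-con), Gzme (758 in place of 1451) and Mcpt8 (101 in place of 172), so these levels and the sums below hold for the exon length only. In sg-con, Gzme (1451 ± 105 TPM) and Mcpt1 (1447 ± 91.2 TPM) stood at the same level within their spread, at ranks 70 and 71 of 34344 genes. Mcpt8 (172 ± 21.8 TPM), Cma1 (110 ± 4.70 TPM) and Gzmd (82.8 ± 9.73 TPM) followed in this order without overlap, and Mcpt4 (15.4 ± 1.23 TPM) and Mcpt2 (7.25 ± 1.07 TPM) were lowest among the genes that were on (SD, n = 3 for all). In sg-kiaa1522 the order was Gzme (675 ± 30.7 TPM), Mcpt8 (118 ± 10.3 TPM), Gzmd (58.5 ± 2.87 TPM), Mcpt1 (41.5 ± 26.4 TPM) and Cma1 (16.7 ± 1.48 TPM). Mcpt1 could not be placed against Gzmd there, since its libraries at 71.9, 28.3 and 24.2 TPM lay on both sides of those of Gzmd at 61.7, 57.4 and 56.3 TPM.

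Summed over the cluster, the level was 3286 ± 220 TPM in sg-con and 910 ± 68.1 TPM in sg-kiaa1522 (SD, n = 3). Mcpt1 made up 44.1 ± 0.651% of this sum in sg-con and 4.44 ± 2.47% in sg-kiaa1522, and Gzme went from 44.2 ± 1.00% to 74.2 ± 2.11%. Grouped after the values were seen, Cma1, Mcpt1, Mcpt2 and Mcpt4 together went from 1579 ± 97.4 to 58.5 ± 25.1 TPM, and Mcpt8, Gzme and Gzmd from 1706 ± 126 to 852 ± 43.7 TPM. Fewer cells with this RNA and less of it in each cell cannot be told apart in bulk samples.

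By the threshold of the study's methods, which asks for an adjusted p not above 0.05 together with a 2-fold or larger difference (1 on the log2 scale), 3 of the 5 genes that entered the fit were called lower (Mcpt1, Cma1 and Gzme) and 0 higher. Of all 10046 tested genes, 4.34% were called lower and 2.74% higher. In all 5 every sg-kiaa1522 library lay below every sg-con library, as in 31.1% of tested genes. The median log2 fold change of the 5 was -1.20, against -0.0067 over all tested genes. These counts describe genes that were chosen for this contrast, and the 5 that did not enter the fit are not part of them.

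**Figure D2:**
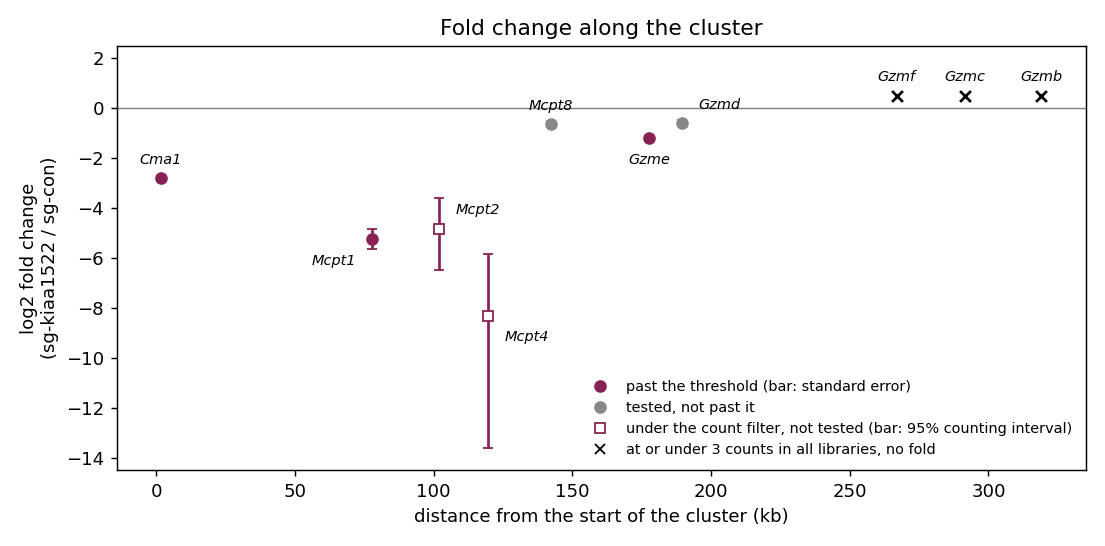
Log2 fold change (sg-kiaa1522 over sg-con) of each gene by its distance in kb from the start of the cluster. Round points are tested genes with standard errors, squares are the count ratios of Mcpt2 and Mcpt4 with 95% counting intervals, and crosses are genes at or under 3 counts in all libraries, placed without a fold. The 4 genes up to Mcpt4 lie at or below -2.80, and the 3 that follow at or above -1.20.

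The annotation lists 16 other genes or pseudogenes between Cma1 and Gzmb, of which 5 are in the files and none was tested. Mcpt9, which lies between Mcpt1 and Mcpt2, had 6, 11 and 17 counts in sg-con and 6, 6 and 3 in sg-kiaa1522, so that the groups overlapped. Cma2, between Cma1 and Mcpt1, and Gzmn had at most 3 counts in any library. Ctsg, the cathepsin G gene between Mcpt8 and Gzme, and Gzmg had 0 counts in all libraries, which allows the same upper limit as for Gzmf. All 5 genes in the files that lie past Gzmd had at most 3 counts in every library.

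Genes on either side were compared next. Among the 10 tested genes nearest on each side, the median log2 fold change was -0.42, and 3 were called lower and 0 higher. Of all tested genes, 4.34% were called lower and 2.74% higher. Of the other tested genes of chromosome 14, 13.6% were called lower, with a median of -0.37, which is near that of these neighbours. The nearest before the cluster, Khnyn at 42.7 kb, had 56.1 ± 10.1 CPM in sg-con and 59.3 ± 1.51 CPM in sg-kiaa1522 (SD, n = 3; log2 fold change 0.081, adjusted p = 0.62, edgeR). Nop9 had a log2 fold change of 0.22 (adjusted p = 0.059, edgeR) and Dhrs1 one of -0.50 (adjusted p = 0.015, edgeR). After the cluster, Cenpj at 265 kb had a log2 fold change of -0.91 (adjusted p = 0.0011, edgeR), Parp4 one of -0.20 (adjusted p = 0.24, edgeR) and Mphosph8 one of -0.15 (adjusted p = 0.24, edgeR).

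The 3 called lower lie next to each other, from 1013 kb past the cluster on. Cryl1 had 372, 416 and 398 counts in sg-con and 27, 38 and 57 in sg-kiaa1522 (log2 fold change -3.13, adjusted p = 3.3e-05, edgeR). Ift88, a gene of ciliary transport, had 339, 314 and 258 against 70, 100 and 96 counts (-1.62, adjusted p = 8.8e-05, edgeR), and Eef1akmt1 had 105, 143 and 154 against 29, 60 and 40 (-1.50, adjusted p = 0.0011, edgeR). Between them and the cluster, all 7 tested genes were under the fold threshold.

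Over the whole of chromosome 14, the median of the log2 fold changes was -0.37 over the 338 other tested genes, and 13.6% were called lower, against a median of 0.0052 and 4% on other chromosomes. With the chromosome median taken off, the log2 fold changes were -4.89 for Mcpt1, -2.43 for Cma1, -0.83 for Gzme, -0.27 for Mcpt8 and -0.23 for Gzmd. Gzme was then under the fold threshold. The values of Mcpt8 and Gzmd were close to those of the chromosome as a whole, and those of Mcpt1 and Cma1 were well below it. In 18 genes within 1 Mb before the middle of the cluster the median was -0.21, and in 7 genes within 1 Mb after it -0.20. Farther off the medians were -0.65 at 1 to 5 Mb after it, with 5 of 18 genes called lower, -0.34 at 5 to 20 Mb and -0.34 beyond, and before it -0.24 at 1 to 5 Mb, -0.50 at 5 to 20 Mb and -0.34 beyond. The number of copies of chromosome 14 in these cells was not measured, and its part in these values was not tested.

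**Figure D3:**
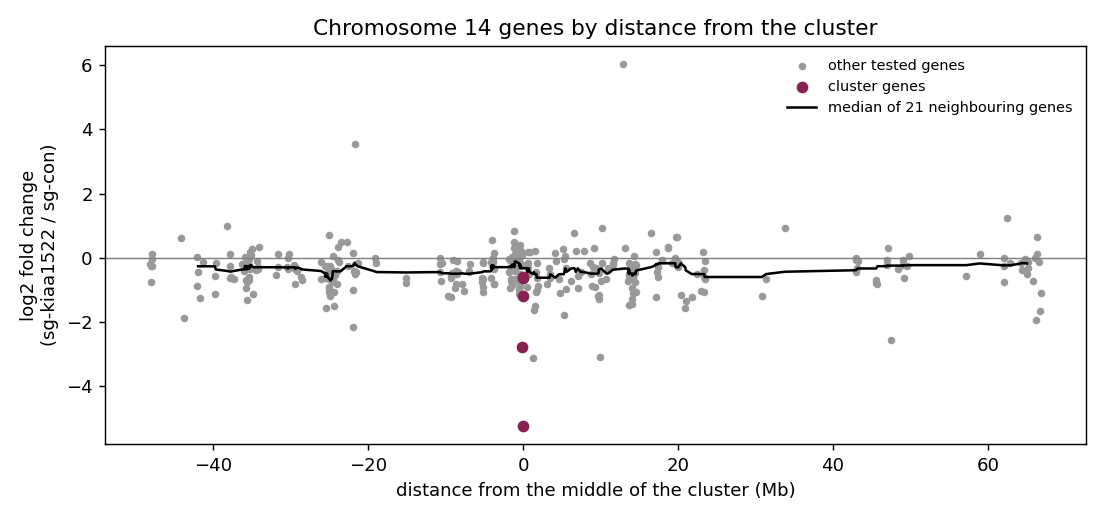
Log2 fold change (sg-kiaa1522 over sg-con) of tested genes of chromosome 14 by distance in Mb from the middle of the cluster, with the 5 tested cluster genes in purple and the running median of 21 neighbouring genes as a line. Mcpt1 at -5.25 is the lowest point, while the line stays below 0 over most of the chromosome.

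The genes whose pattern over the 6 libraries was most like that of Mcpt1 were Fmod, Smoc2 and Hpse, among 10045 other tested genes and by the root mean square difference of centred log2 CPM (0.843, 0.924 and 1.02). They lie on chromosomes 1, 17 and 5 and had means of 13.1, 26.1 and 55.1 CPM in sg-con and 0.628, 1.83 and 4.24 CPM in sg-kiaa1522. Those most like Gzme were St3gal5, Paqr4 and Fdps (0.0389, 0.0401 and 0.0461). Their log2 fold changes were -1.18, -1.27 and -1.14. The distance grows with the fold change, so those from Mcpt1 and those from Gzme are not compared.

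The proteases work with other gene products, and 4 lists of these were counted: activation, storage and delivery, proteases coded elsewhere, inhibitors, and transcription factors. Of their 52 genes, 51 were in the files and 21 were tested. In them 3 genes were called lower and 2 higher, where 4.34% and 2.74% of all tested genes were, and the median log2 fold change was 0.01. The lists were chosen with earlier results of these data known, so their calls and adjusted p values are given as a description. The counts of each list follow.

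Cathepsin C (Ctsc), the peptidase that removes the activation peptide of granzymes and chymases, rose. It had 8, 2 and 4 counts in sg-con and 111, 175 and 227 in sg-kiaa1522. The mean was 0.268 ± 0.177 CPM and 10.6 ± 2.32 CPM (SD, n = 3). The log2 fold change was 5.29 with an SE of 0.356 (adjusted p = 5.5e-05, edgeR) and rests on few sg-con counts.

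Of the other 9 genes of activation, storage and delivery, 7 were tested. Unc13d, which primes granules for release, rose from 37, 57 and 48 counts to 152, 188 and 203 (log2 fold change 2.10, adjusted p = 1.1e-04, edgeR). Rab27a, which docks them at the membrane, fell from 138, 166 and 148 to 24, 36 and 43 counts (-1.98, adjusted p = 9.9e-05, edgeR). The other 5 tested genes did not pass the fold threshold. Of these, the receptor gene Igf2r (0.75, adjusted p = 5.6e-04, edgeR), the heparin synthesis gene Ndst2 (-0.60, adjusted p = 0.0011, edgeR) and the fusion gene Stx11 (-0.25, adjusted p = 0.03, edgeR) had an adjusted p under 0.05. The sorting receptor gene M6pr (0.20, adjusted p = 0.11, edgeR) and the granule membrane gene Lamp1 (0.01, adjusted p = 0.90, edgeR) did not. Serglycin (Srgn) had 19, 11 and 11 against 9, 9 and 13 counts, and perforin (Prf1) had 1 count in 1 sg-con library and 0 in the others, so that serglycin was low in all 6 libraries and perforin was not detectable above 3 counts.

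Among the inhibitors, 2 of 3 tested genes were called lower. Serpinb9, the intracellular inhibitor of granzyme B, fell from 441, 429 and 478 counts to 105, 90 and 104, or from 25.6 ± 2.78 to 6.53 ± 1.90 CPM (SD, n = 3; log2 fold change -1.99, adjusted p = 2.3e-04, edgeR). Serpinb6b fell from 1231, 1210 and 1103 to 398, 412 and 489 counts (-1.27, adjusted p = 2.9e-04, edgeR). The third tested inhibitor, Serpinb6a, did not pass the threshold (0.22, adjusted p = 0.12, edgeR). Serpinb9b, under the count filter, had 101, 106 and 109 counts against 15, 21 and 16. Of the other 9 inhibitors in the list, 7 had at most 3 counts in every library.

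Proteases coded outside the cluster were mostly off. Of 12 genes in the files, 9 had at most 3 counts in every library, among them Gzmk, Cpa3 and the neutrophil elastase gene Elane at 0. Gzma had 7, 3 and 5 counts in sg-con and 4, 9 and 7 in sg-kiaa1522, and Gzmm had 12, 11 and 22 against 12, 19 and 11. The one tested gene, the mast cell tryptase gene Tpsab1, had 163, 181 and 134 counts against 234, 264 and 167 (log2 fold change 0.67, adjusted p = 0.044, edgeR), under the fold threshold and with a sign opposite to that of the cluster genes.

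None of the 9 tested transcription factors passed the threshold. Runx1 (121 ± 3.15 and 115 ± 9.45 CPM, SD, n = 3) had a log2 fold change of -0.075 (adjusted p = 0.43, edgeR), and Runx3 (64.3 ± 4.95 and 74.1 ± 5.41 CPM) one of 0.20 (adjusted p = 0.088, edgeR). Both belong to the family whose letters stand in all 9 promoters described above. Eomes, a factor of cytotoxic lymphocytes, had 21.5 ± 1.69 and 36.0 ± 1.79 CPM (0.74, adjusted p = 5.7e-04, edgeR). The GATA factors of mast cells were near 0, with 0 counts of Gata1 and at most 2 of Gata2 in any library. Stat3, Stat5a, Stat5b, Cebpa and Cebpb were on, with log2 fold changes between -0.23 and 0.39.

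**Figure D4:**
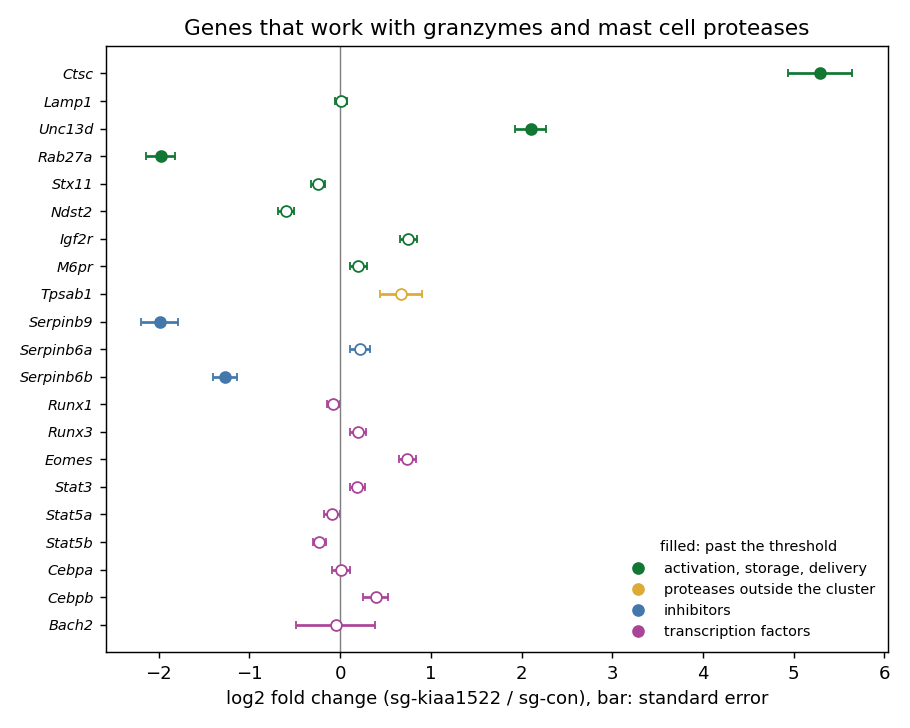
Log2 fold change (sg-kiaa1522 over sg-con) with standard errors of the 21 tested genes of the 4 lists, which hold activation, storage and delivery, proteases outside the cluster, inhibitors and transcription factors, with filled points for genes past the threshold. Ctsc at 5.29 and Unc13d at 2.10 were higher, and Rab27a, Serpinb9 and Serpinb6b were lower.

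Markers of the cell types that normally make these proteases were at or near 0. Of 12 mast cell markers, 10 had at most 3 counts in every library and 7 had none in any, including Cpa3, Fcer1a and Ms4a2, and Kit had at most 1. Their summed level was 8.24 to 9.77 CPM in sg-con and 10.1 to 19.2 CPM in sg-kiaa1522, nearly all of it from Tpsab1. Of 14 markers of cytotoxic lymphocytes, 12 had at most 3 counts in every library, and their sum was 0.358 to 0.571 CPM against 0.469 to 0.574 CPM. Cd3e, Cd8a, Ncr1 and Nkg7 were at 0 in all 6 libraries, in which Gzme had at least 2899 counts.

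The leukocyte gene Ptprc had 14, 1 and 6 counts in sg-con and 1, 2 and 2 in sg-kiaa1522. The summed level of 5 leukocyte markers was 10.8 to 12.7 CPM in sg-con and 18.4 to 24.6 CPM in sg-kiaa1522, and that of 6 macrophage and granulocyte markers 2.20 to 5.08 CPM and 11.0 to 13.8 CPM. Most of the leukocyte sum came from Cd53 (9.84 ± 0.620 and 20.6 ± 2.80 CPM, SD, n = 3). Most of the macrophage and granulocyte sum in sg-kiaa1522 came from Cd68 (1.19 ± 0.0509 and 11.2 ± 1.4 CPM), whereas in sg-con Lyz2 had the higher mean (2.26 ± 1.32 and 0.921 ± 0.0181 CPM). Some other markers of these lists were lower in sg-kiaa1522. Coro1a had 19, 13 and 14 counts in sg-con and 5, 5 and 5 in sg-kiaa1522, and Lyz2 had 63, 18 and 37 against 11, 17 and 16. The part of these genes in the result was not tested. Lung epithelial markers were present in part. Of 8 markers 6 were tested, 1 was called lower and 0 higher, and the median log2 fold change was -0.70, with all 6 below 0. The summed level of the list was 3871 to 4593 CPM in sg-con and 3259 to 3505 CPM in sg-kiaa1522, lower as in the cluster genes, and its part in the result was not tested. Krt8 had 1275 ± 130 and 963 ± 33.4 CPM (SD, n = 3; -0.40, adjusted p = 0.0046, edgeR), Krt19 had 794 ± 108 and 478 ± 36.1 CPM (-0.73, adjusted p = 0.0012, edgeR), and Krt18 had 2114 ± 157 and 1850 ± 81.2 CPM. Sftpb, a surfactant gene, had 21.5 ± 4.01 and 13.5 ± 1.78 CPM (-0.67, adjusted p = 0.012, edgeR). Epcam was at 0 in all libraries, and Cdh1 fell from 56.2 ± 4.92 to 20.5 ± 1.14 CPM (log2 fold change -1.45, adjusted p = 5.1e-05, edgeR). Of 7 mesenchymal markers 4 were tested, and 1 was called lower, Col1a2, which fell from 422 ± 8.07 to 153 ± 9.86 CPM (-1.46, adjusted p = 1.5e-05, edgeR). Vim had 4169 ± 120 and 4861 ± 227 CPM (0.22, adjusted p = 0.012, edgeR), Pdgfrb had 42.8 ± 1.36 and 26.2 ± 6.79 CPM (-0.72, adjusted p = 0.0086, edgeR), and Zeb1 had 75.4 ± 5.68 and 69.2 ± 6.16 CPM (-0.12, adjusted p = 0.30, edgeR). Col1a1, under the count filter, had 105, 126 and 137 counts against 20, 29 and 34.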

How the data were processed

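RNA of 889 cells was sequenced by the authors, who trimmed adaptors and removed rRNA reads with Seqtk, aligned reads to GRCm38 with HISAT2 2.0.4 and counted uniquely mapped fragments with StringTie 1.3.0. The deposited values are raw counts per Ensembl gene, 1 library per file. The annotation release and strand setting were not given in the sources used here.

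A sum above 500 counts was required, which 10046 genes passed. They were fitted across all genes with edgeR 4.0.16 in R 4.3.3 (TMM, quasi-likelihood test, Benjamini-Hochberg adjustment, no covariates), as filter and threshold in the study's methods. CPM used library totals times TMM factors (0.9898 to 1.01). TPM used exon lengths of GENCODE M21, to which 34344 of 34745 genes were matched. Counting intervals and the limit of 3 counts cover counting error only. The fits were tested on simulated data. Libraries of a group differed beyond sampling noise (chi-square per degree of freedom at least 12.3).

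The members and lists were chosen with earlier results of these data known. Named genes were all members, genes between them in the files, the 3 nearest tested genes and those past the threshold among 10 on each side, list genes past the threshold or above 10 CPM in every library, and 3 genes of like profile (pseudocount 0.5 CPM). Genes named for a count of 0 or as markers are examples. Alternatives were RLE factors, library size alone, DESeq2 1.42.0, 2 filters, the replicate block, each library left out, the adjusted p alone, another length and another floor.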

Additional observations from a re-analysis of the deposited data

How the results depend on the processing

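The log2 fold changes of the 5 tested cluster genes kept their sign and their side of the threshold under RLE factors, library size alone, DESeq2, both other filters, the replicate block and each library left out. Over these settings they ranged from -5.88 to -4.97 for Mcpt1, -2.86 to -2.74 for Cma1, -1.28 to -1.15 for Gzme, -0.71 to -0.53 for Mcpt8 and -0.71 to -0.52 for Gzmd. With every gene of at least 1 count tested, and also with edgeR's filterByExpr, 5 members were called lower in place of 3, and 5 list genes in place of 3. In the fit of every gene the added ones were Mcpt2, Mcpt4, Serpinb9b (-2.44) and Serpinb1a (-2.14). The share of all genes called lower is given for the main fit only, so the counts under these 2 filters have no background beside them. By the adjusted p alone, 5 members were lower, 6 list genes were lower and 6 higher, and 9 genes beside the cluster were lower and 1 higher. The shares over all tested genes given above hold for the threshold with the fold. None is given for the adjusted p alone, so these counts cannot be set against a background. With the replicate block, 3 members were lower and Mcpt1 had a log2 fold change of -5.37, and no call among the members changed. The same-numbered libraries had correlations of -0.23, -0.053 and -0.17 between their deviations, and 0 of the 6 correlated best with its own number. With the median of the chromosome taken off, the values kept their sign, but that of Gzme was -0.83 and under the fold threshold, so that 2 of the 3 called members were still past it (a value with no test). A floor of 10 counts gave the same 2 lost genes and the same 5 that were on. Depth limits Mcpt2, Mcpt4, Gzmb, Gzmc and Gzmf, whose reduced or absent levels lie under 3 counts.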

Other observations

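Markers of other cell types differed in direction. Cd68, a lysosomal gene high in macrophages, rose from 21, 23 and 19 counts to 122, 235 and 186 (log2 fold change 3.23, adjusted p = 2e-05, edgeR), and Cd53, a tetraspanin of leukocytes, rose from 170, 173 and 176 to 282, 324 and 361 (1.07, adjusted p = 5e-04, edgeR), while Adgre1 was at 0 in all libraries and Csf1r had 5, 0 and 1 counts against 0, 0 and 0. Nkx2-1, the lung lineage factor, had 970, 1096 and 227 counts in sg-con and 132, 174 and 671 in sg-kiaa1522, so that the replicate 3 libraries of both groups stood apart from their groups. The cluster genes did not share that pattern.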
